A study of Mus musculus with 12 samples.

Results

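Calcium leaves the endoplasmic reticulum of an activated blood cell through release channels, re-enters from outside when the store runs low, and is pumped back into the store. The messages for 10 genes of that cycle were followed across the genotypes of a mouse series: the inositol trisphosphate (IP3) receptors Itpr1, Itpr2 and Itpr3, the ryanodine receptors Ryr2 and Ryr3, the store sensors Stim1 and Stim2, the plasma membrane channel Orai1, and the store pumps Atp2a2 and Atp2a3. They were chosen by name for their known roles, with earlier results of these data already known. All 10 were found by symbol among the 49671 genes of the deposited count table. The libraries fell into 4 groups of 3, named by their labelled genotype: LYL1 SCL DKO (double knockout, DKO, of both genes), SCL KO, LYL1 KO and WT (wild type). Every library is labelled as RNA from pooled embryos at embryonic day 9.5, with no treatment, and the labels describe neither the alleles nor the litters that made up a pool. Lyl1 encodes LYL1 and Tal1 encodes SCL, transcription factors of the same basic helix-loop-helix family that act in the blood lineage.

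In the textbook account, phospholipase C makes IP3 after a surface receptor is engaged, and IP3 opens its receptors in the store membrane. STIM proteins sense the fall of calcium inside the store, cluster beneath the plasma membrane and open ORAI channels, which is called store-operated entry, while the SERCA pumps encoded by the Atp2a genes refill the store. Platelets and megakaryocytes, the platelet-forming cells, are known for strong use of this cycle, with Stim1, Orai1 and the Atp2a3 pump in leading roles, whereas ryanodine receptors are best known from muscle and brain.

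Depth and labels were checked first. Total counts per library lay between 24324685 and 29212443. Levels are given as TMM-normalised CPM, in which counts are divided by the library's total over the tested genes times its TMM scaling factor. The scaled libraries therefore do not share the same total. Tal1 lay at 92.8 CPM in LYL1 SCL DKO and 109 CPM in SCL KO, against 579 CPM in LYL1 KO and 572 CPM in WT, and Lyl1 lay at 84.1 CPM in LYL1 SCL DKO and 87.7 CPM in LYL1 KO, against 175 CPM in SCL KO and 181 CPM in WT. Lyl1 transcript thus remained at 46.5% of the WT mean in LYL1 SCL DKO and 48.5% in LYL1 KO, and Tal1 transcript at 16.2% in LYL1 SCL DKO and 19.15% in SCL KO. The labels do not say which part of either gene was deleted, so counts over the whole gene check these labels only in part. The labelled tissue was poorly matched by its markers: 8 of 12 heart muscle and 8 of 10 neural markers stayed under 1 CPM in every library, and the heart genes Myh6, Nkx2-5, Myl7 and Nppa had no count in any. All 15 megakaryocyte markers were detected, and their summed level ranged from 17660 to 72810 CPM. That sum was 35130, 24740 and 17660 CPM in the LYL1 SCL DKO libraries, 44290 to 60800 CPM in SCL KO, 63370 to 72810 CPM in LYL1 KO and 57960 to 66070 CPM in WT, so it moved with the genotype. Markers of other cell types were also present. In LYL1 SCL DKO and in WT, macrophage markers summed to 3366 to 3906 and 4147 to 6962 CPM. Endothelial ones summed to 506 to 662 and 1307 to 1467, and erythroid ones to 47.3 to 353 and 594 to 697.5. Smooth muscle ones summed to 54.3 to 168.5 and 190.7 to 345.5, and stromal ones to 19.1 to 49.2 and 141.5 to 163. Neutrophil sums (383.5 to 930 and 279.6 to 576) and mast cell sums overlapped. In such bulk RNA, fewer cells of a type and less RNA per cell cannot be told apart.

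Compared with each other per kilobase of gene model, the members spanned a wide range, and the pump Atp2a3 stood far above the rest. Over the 12 libraries Atp2a3 averaged 591 CPM per kilobase, followed by the more widely expressed pump Atp2a2 at 54.9 and the sensor Stim1 at 52.8 CPM per kilobase. Orai1 averaged 19.6 CPM per kilobase, and Itpr1, Itpr2 and Stim2 lay between 9.66 and 12.2. Itpr3 and both ryanodine receptors were scarce, at 0.421 CPM per kilobase for Itpr3, 0.136 for Ryr3 and 0.028 for Ryr2. In WT the same order of the extremes was seen, with Atp2a3 at 703 ± 60.7 and Ryr2 at 0.0157 ± 0.00337 CPM per kilobase (mean ± SD, n = 3).

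**Figure D1:**
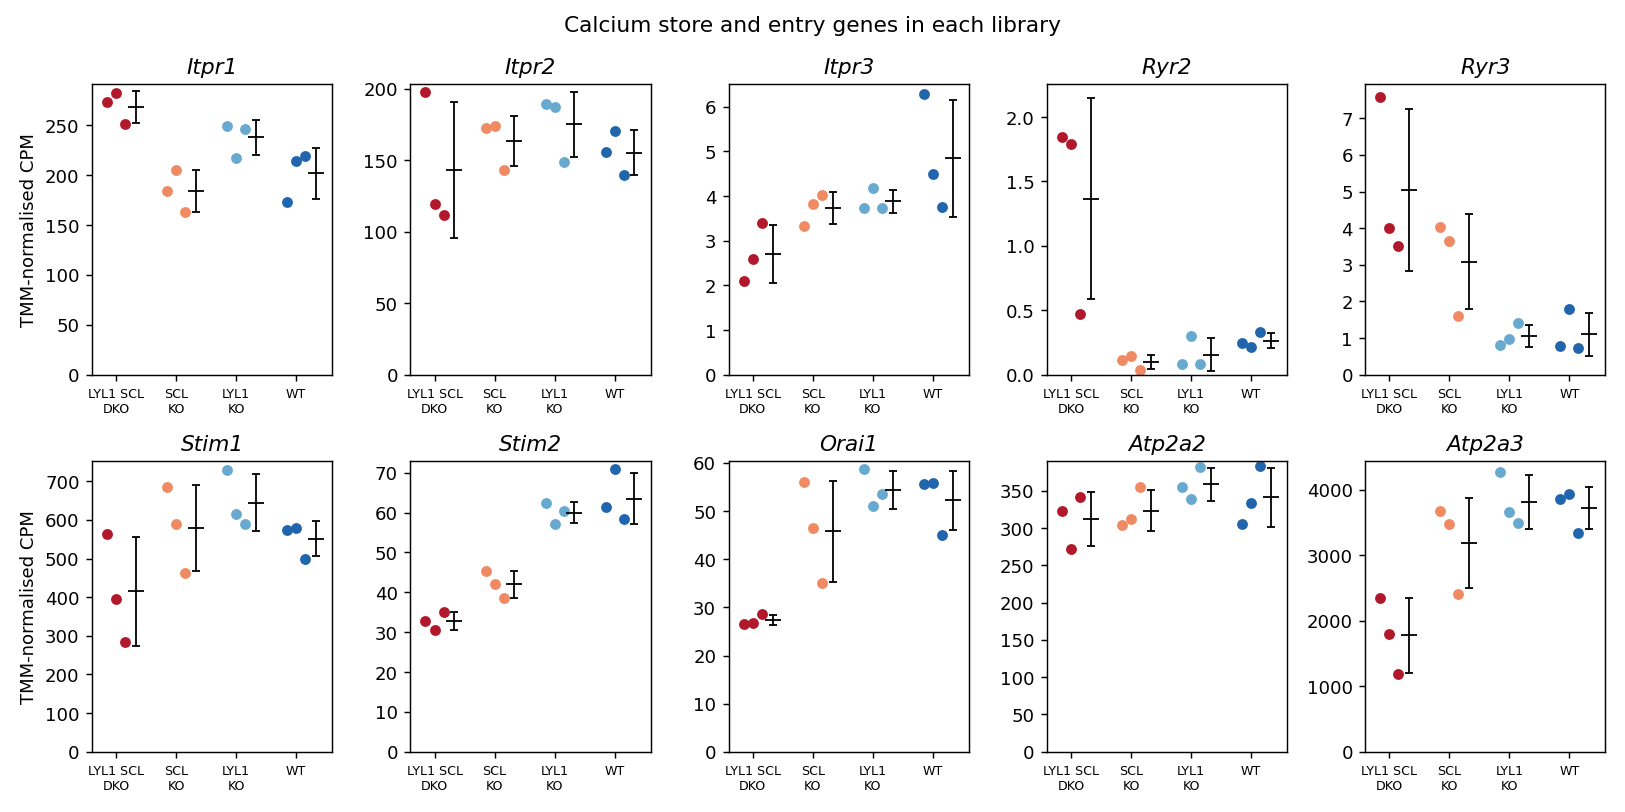
TMM-normalised CPM of the 10 genes, 1 point per library, grouped by genotype with LYL1 SCL DKO at the left and WT at the right of each panel; the bar is the group mean and the whisker its SD (n = 3). The LYL1 SCL DKO points lie below all others for Stim2, Orai1 and Atp2a3 and above all others for Ryr2 and, by little, Itpr1, while the 4 groups overlap for Atp2a2.

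In LYL1 SCL DKO against WT, 7 of the 10 genes differed. The pump Atp2a3, the sensor Stim2, the channel Orai1 and the scarce Itpr3 were lower, and Itpr1, Ryr2 and Ryr3 were higher. By edgeR's quasi-likelihood test, with a call set at a Benjamini-Hochberg adjusted p under 0.05 over all 15399 genes tested, 3 were called higher and 4 lower, where 34.5% of all genes tested were called, 16.4% higher and 18.1% lower. Without LYL1 SCL DKO library 2 or without WT library 1, 4 of the 10 were called. The median log2 change of the 10 was -0.27, beside 0.04 over all genes tested. All 10 members passed the filter on low counts, but Ryr2 passed it only through the LYL1 SCL DKO libraries, so that it had to differ to be tested at all. Without that filter its log2 change against WT was 2.33 (adjusted p = 0.0168).

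Among the single knockouts, calls were few. In SCL KO against WT, 1 of the 10 genes was called, Stim2, which was lower, where 5.03% of all genes were called, 2.29% higher and 2.73% lower. In LYL1 KO against WT none was called by edgeR, and DESeq2 and limma-voom called 0, where edgeR called 0.0714% of all genes, 0.039% higher and 0.0325% lower. None of the 10 had an unadjusted edgeR p under 0.05, beside 1230 of all 15399 genes tested. The double knockout differed from SCL KO in 5 of the 10 genes, 2 higher and 3 lower, where 19.1% of all genes were called, 8.37% higher and 10.8% lower. That count was 3 without LYL1 SCL DKO library 2 or without SCL KO library 1 or 2. The double knockout differed from LYL1 KO in 6 of the 10 genes, 2 higher and 4 lower, where 35.2% of all genes were called, 17.4% higher and 17.9% lower. The comparisons with LYL1 SCL DKO share its 3 libraries, and those against WT share the WT libraries.

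**Figure D2:**
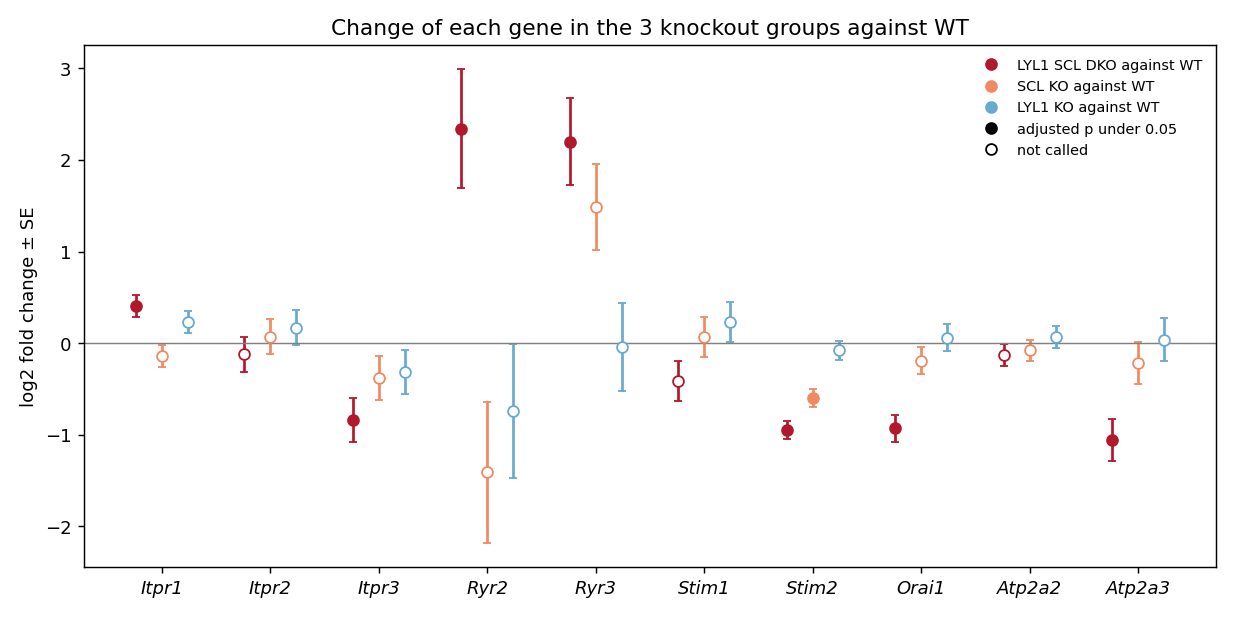
Log2 fold change ± SE against WT for each gene in LYL1 SCL DKO, SCL KO and LYL1 KO, from 1 edgeR fit of the 12 libraries; filled points have an adjusted p under 0.05. In LYL1 SCL DKO 7 genes are filled, in SCL KO only Stim2, and in LYL1 KO none.

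Stim2, Orai1, Atp2a3 and Ryr2 were called in LYL1 SCL DKO against each of the other 3 groups, and the DNA upstream of their starts is shown for that reason. Of these, Ryr2 entered the test only through its LYL1 SCL DKO libraries. The share of all genes called against all 3 groups was not taken, so their number is not read as a result. The 250 bases before each start are given 5′ to 3′ on the gene's strand, from RefSeq on GRCm38.p6, with CANNTG (the E-box bound by basic helix-loop-helix factors) and GGAA (the core of ETS factor sites) in capitals on either strand, so that GGAA may also read TTCC. The windows are chr11:72960919-72961168 (plus strand) for Atp2a3, chr5:53998273-53998522 (plus strand) for Stim2, chr5:123014824-123015073 (plus strand) for Orai1 and chr13:12106946-12107195 (minus strand) for Ryr2.
Atp2a3: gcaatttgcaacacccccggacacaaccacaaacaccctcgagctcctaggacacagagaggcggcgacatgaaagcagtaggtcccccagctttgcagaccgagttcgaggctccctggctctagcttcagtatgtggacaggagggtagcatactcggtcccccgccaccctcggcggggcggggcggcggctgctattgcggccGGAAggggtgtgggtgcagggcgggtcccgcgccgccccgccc
Stim2: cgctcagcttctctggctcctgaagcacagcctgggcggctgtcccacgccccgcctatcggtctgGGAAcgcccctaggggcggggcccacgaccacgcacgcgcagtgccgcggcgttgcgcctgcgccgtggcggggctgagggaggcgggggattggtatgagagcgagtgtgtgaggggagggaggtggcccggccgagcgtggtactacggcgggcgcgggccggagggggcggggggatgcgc
Orai1: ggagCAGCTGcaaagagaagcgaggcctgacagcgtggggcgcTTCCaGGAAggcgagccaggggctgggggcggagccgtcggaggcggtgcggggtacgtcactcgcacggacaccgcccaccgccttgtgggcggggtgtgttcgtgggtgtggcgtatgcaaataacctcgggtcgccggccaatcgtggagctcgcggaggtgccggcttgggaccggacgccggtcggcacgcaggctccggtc
Ryr2: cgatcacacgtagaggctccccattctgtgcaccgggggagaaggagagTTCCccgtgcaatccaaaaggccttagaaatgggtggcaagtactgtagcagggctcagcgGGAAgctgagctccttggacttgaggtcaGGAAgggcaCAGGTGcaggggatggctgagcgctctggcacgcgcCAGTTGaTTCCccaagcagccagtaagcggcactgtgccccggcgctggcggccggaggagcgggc

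In the windows shown, Atp2a3 and Stim2 had no CANNTG and 1 GGAA each, and Orai1 had 1 CANNTG, spelled CAGCTG, and 2 GGAA. Ryr2 had 2 CANNTG and 4 GGAA. The number of matches per window was not taken over all promoters, so these counts are not set against the direction of change. Such matches are common by themselves. Among all 32851 RefSeq promoters of 300 bases, which run 50 bases past the start, 72.3% held CANNTG, 16.3% CAGCTG and 96% GGAA. Of the 7 members with a promoter in the table, 5 held CANNTG, 1 held CAGCTG and 7 held GGAA in that window. The E-box spelling CAGATG was in 0 of the 7 and in 17.2% of all promoters. The GATA letters AGATAA were also in 0 of the 7, against 11.2% of all promoters. For the spelling TGATAA the count was again 0 of the 7, against 9.05% of all. Itpr1, Ryr3 and Atp2a2 had no entry.

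The store pumps came first in abundance and differed from each other. Atp2a3 (ENSMUSG00000020788, chromosome 11, 72961169 to 72993044, GRCm38) encodes SERCA3, the pump typical of blood cells. It lay at 2340, 1801 and 1190 CPM in LYL1 SCL DKO, at 3677, 3468 and 2405 CPM in SCL KO, at 4275, 3662 and 3497 CPM in LYL1 KO and at 3855, 3935 and 3345 CPM in WT. Every LYL1 SCL DKO library lay below every other library, and SCL KO library 3 was the next lowest. Atp2a3 fell by 1.06 ± 0.23 on the log2 scale in LYL1 SCL DKO against WT (adjusted p = 0.00436), to 47.9% of the WT mean. It also fell by 0.84 ± 0.23 on the log2 scale against SCL KO (adjusted p = 0.026) and by 1.10 ± 0.23 against LYL1 KO (adjusted p = 0.00333). The call against SCL KO was lost when LYL1 SCL DKO library 2 or 3 or SCL KO library 1 or 2 was left out, with adjusted p up to 0.0965, and at 0.102 when only those 6 libraries were fitted.

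Atp2a2 (ENSMUSG00000029467, chromosome 5, 122453513 to 122502225) encodes SERCA2, the pump that most cells use. Its level was 312 ± 36.1 CPM in LYL1 SCL DKO, 324 ± 27.9 in SCL KO, 359 ± 22.2 in LYL1 KO and 341 ± 39.4 CPM in WT (mean ± SD, n = 3 each). The groups overlapped throughout, and the log2 change in LYL1 SCL DKO against WT was -0.13 ± 0.12 (adjusted p = 0.443). Per kilobase, the Atp2a3 level was 6.67 ± 2.33 times that of Atp2a2 in LYL1 SCL DKO, 11.5 ± 3.28 times in SCL KO, 12.3 ± 1.68 times in LYL1 KO and 12.7 ± 2.36 times in WT. The summed level of both pumps was 388 ± 107 CPM per kilobase in LYL1 SCL DKO and 759 ± 55.1 CPM per kilobase in WT, and Atp2a3 made up 85.9% of it in LYL1 SCL DKO and 92.5% in WT. No WT library had a ratio as low as the highest LYL1 SCL DKO library, 8.36, but SCL KO library 3 did, at 7.79.

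Because Atp2a3 and the megakaryocyte markers moved together, its level was also set against theirs, a measure chosen after the values were seen. For every 1000 CPM of summed markers, Atp2a3 had 66.6, 72.8 and 67.4 CPM in the LYL1 SCL DKO libraries, 54.3 to 60.5 CPM in SCL KO, 55.2 to 58.7 CPM in LYL1 KO and 64.0, 59.6 and 57.7 CPM in WT. On that scale the LYL1 SCL DKO libraries lay above all others rather than below them. Of the 15 markers, 13 were themselves called lower in LYL1 SCL DKO against WT. The part of these cells in the change of Atp2a3 was not tested.

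**Figure D3:**
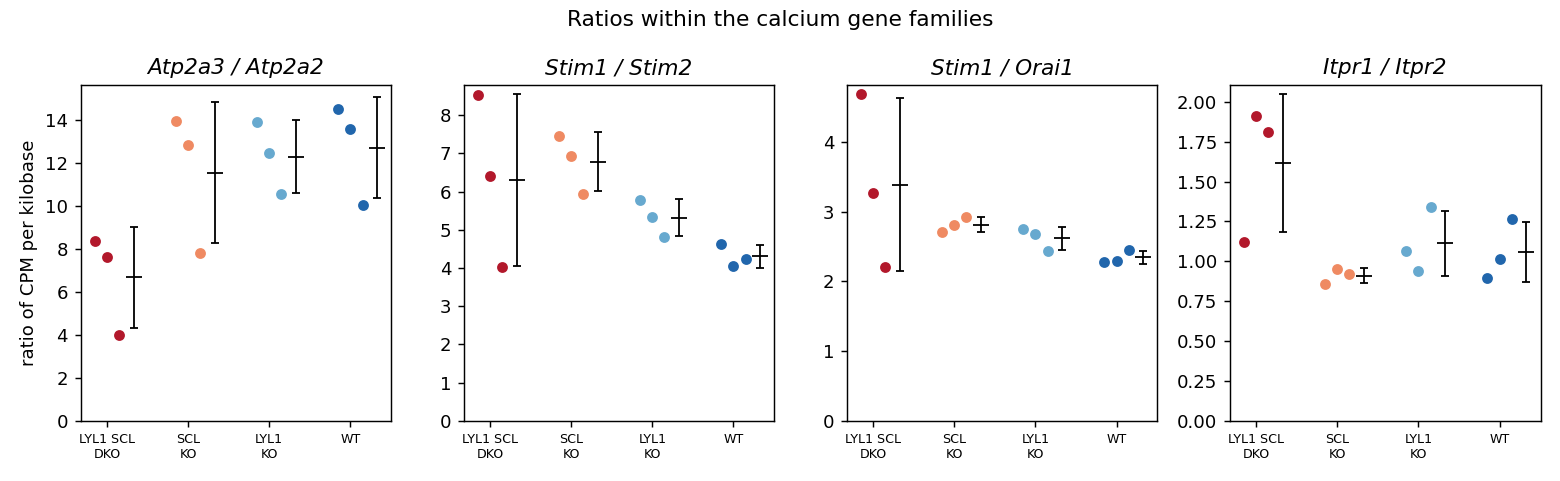
Ratios of CPM per kilobase within each library for Atp2a3 over Atp2a2, Stim1 over Stim2, Stim1 over Orai1 and Itpr1 over Itpr2, by genotype; bars are means and whiskers SD (n = 3). The Atp2a3 to Atp2a2 ratio averages 6.67 in LYL1 SCL DKO and 12.7 in WT, and the Stim1 ratios of the 3 LYL1 SCL DKO libraries are widely spread.

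The store sensors were unlike each other. Stim2 (ENSMUSG00000039156, chromosome 5, 53998499 to 54121057) encodes the sensor that responds to small losses of store calcium. It lay at 32.8, 30.6 and 35.1 CPM in LYL1 SCL DKO, at 45.4, 42.0 and 38.6 CPM in SCL KO, at 62.3, 57.1 and 60.5 CPM in LYL1 KO and at 61.3, 70.8 and 58.4 CPM in WT. All LYL1 SCL DKO libraries lay below all SCL KO libraries, which in turn lay below all LYL1 KO and WT libraries, and the last pair of groups overlapped. Stim2 fell by 0.95 ± 0.10 on the log2 scale in LYL1 SCL DKO against WT (adjusted p = 3.13e-05) and by 0.60 ± 0.10 in SCL KO against WT (adjusted p = 0.00512). These values are 51.7% and 66.2% of the WT mean, and both calls held under all 20 alternatives. Against LYL1 KO it fell by 0.87 ± 0.10 on the log2 scale in LYL1 SCL DKO (adjusted p = 5.39e-05).

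The step between the double knockout and SCL KO was less firm for Stim2. Its log2 change there was -0.36 ± 0.10 (adjusted p = 0.0289), and 8 of 20 alternatives lost the call, with adjusted p up to 0.135. These included leaving out LYL1 SCL DKO library 1 or 2, SCL KO library 1 or 2, or LYL1 KO library 1 or 3. In LYL1 KO against WT its log2 change was -0.08 ± 0.10 (adjusted p = 0.882). The interaction, which is the difference between LYL1 SCL DKO and SCL KO minus that between LYL1 KO and WT, was -0.27 ± 0.14 for Stim2 and was not called (adjusted p = 0.268).

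Stim1 (ENSMUSG00000030987, chromosome 7, 102267806 to 102437319), the main sensor of platelets, was about 4 to 7 times as abundant as Stim2 per kilobase in group means. It lay at 564, 395 and 285 CPM in LYL1 SCL DKO, at 685, 589 and 463 CPM in SCL KO, at 729, 616 and 589 CPM in LYL1 KO and at 575, 580 and 500 CPM in WT. The LYL1 SCL DKO libraries were the most spread, with library 1 inside the WT range and libraries 2 and 3 below it. Its log2 change was -0.41 ± 0.22 in LYL1 SCL DKO against WT (adjusted p = 0.168) and 0.07 ± 0.22 in SCL KO against WT (adjusted p = 0.913).

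Against LYL1 KO, Stim1 fell by 0.64 ± 0.22 on the log2 scale in LYL1 SCL DKO (adjusted p = 0.0404), a call that 7 of 20 alternatives lost, with adjusted p up to 0.129 when LYL1 KO library 1 was left out. It was also lost without LYL1 SCL DKO library 2 or 3, SCL KO library 2, or LYL1 KO library 2 or 3. Against SCL KO its log2 change was -0.48 ± 0.22 (adjusted p = 0.151), and with the replicate number as a block it was -0.51 and called (adjusted p = 0.0213). Without LYL1 SCL DKO library 1 it was called lower against WT (log2 change -0.69, adjusted p = 0.0149) and against SCL KO (log2 change -0.77, adjusted p = 0.0136).

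The ratio of Stim1 to Stim2 per kilobase was 6.32 ± 2.25 in LYL1 SCL DKO, 6.78 ± 0.775 in SCL KO, 5.32 ± 0.485 in LYL1 KO and 4.31 ± 0.299 in WT. In LYL1 SCL DKO it was 8.52, 6.41 and 4.02, so that library 3 fell below every WT library, which had 4.64, 4.05 and 4.23. The 3 SCL KO libraries, at 7.47, 6.93 and 5.94, lay above all LYL1 KO and WT libraries. Stim1 for every 1000 CPM of megakaryocyte markers was 16.05, 15.98 and 16.16 CPM in LYL1 SCL DKO, against 9.54, 8.77 and 8.62 CPM in WT, so that the Stim1 level of the 3 double knockout libraries varied in step with those markers.

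Orai1 (ENSMUSG00000049686, chromosome 5, 123015074 to 123030456) forms the pore that STIM proteins open. It lay at 26.6, 26.8 and 28.5 CPM in LYL1 SCL DKO, at 56.0, 46.5 and 35.0 CPM in SCL KO, at 58.7, 51.0 and 53.6 CPM in LYL1 KO and at 55.7, 55.8 and 45.1 CPM in WT. The LYL1 SCL DKO libraries were close together and lay below all others, while SCL KO library 3 lay between them and the WT range. Orai1 fell by 0.93 ± 0.15 on the log2 scale in LYL1 SCL DKO against WT (adjusted p = 0.000587), to 52.3% of the WT mean. It fell by 0.75 ± 0.15 on the log2 scale against SCL KO (adjusted p = 0.00492) and by 0.99 ± 0.15 against LYL1 KO (adjusted p = 0.00036). All 3 calls held under all 20 alternatives.

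In the single knockouts, the log2 change of Orai1 against WT was -0.19 ± 0.15 in SCL KO (adjusted p = 0.575) and 0.06 ± 0.15 in LYL1 KO (adjusted p = 0.948). The interaction was called, at -0.81 ± 0.21 (adjusted p = 0.0364), so that the difference between LYL1 SCL DKO and SCL KO was more negative than that between LYL1 KO and WT. Only 9 of 19 alternatives kept this call: it was lost in 10 of the 12 fits that left out a library, all but those without library 3 of LYL1 SCL DKO or of SCL KO, with adjusted p up to 0.0997. Stim2 and Orai1 fell by like amounts in the double knockout, and the ratio of Stim2 to Orai1 per kilobase was 0.537 ± 0.0237 in LYL1 SCL DKO, 0.42 ± 0.0663 in SCL KO, 0.493 ± 0.0163 in LYL1 KO and 0.546 ± 0.0471 in WT.

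Unlike Atp2a3 and Stim1, Orai1 and Stim2 did not vary with the megakaryocyte markers among the 3 LYL1 SCL DKO libraries. Orai1 for every 1000 CPM of those markers was 0.757, 1.08 and 1.62 CPM in LYL1 SCL DKO, against 0.925, 0.845 and 0.778 CPM in WT. Stim2 on the same scale was 0.932, 1.24 and 1.99 CPM in LYL1 SCL DKO, against 1.02, 1.07 and 1.01 CPM in WT. In SCL KO the scaled values were 0.921, 0.787 and 0.791 CPM for Orai1 and 0.747, 0.712 and 0.872 CPM for Stim2. There the unscaled levels of both genes fell from library 1 to library 3, as did the marker sum, at 60800, 59000 and 44290 CPM. Both genes kept within a narrow range of CPM in the 3 LYL1 SCL DKO libraries while the marker sum ranged from 17660 to 35130 CPM. The part of the cell makeup in the falls of Stim2 and Orai1 was not tested.

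Among the release channels, Itpr1 and Itpr2 were abundant and Itpr3 was scarce. Itpr1 (ENSMUSG00000030102, chromosome 6, 108213096 to 108551109) encodes the IP3 receptor best known from the brain and also present in platelets. It lay at 274, 282 and 251 CPM in LYL1 SCL DKO, at 184, 205 and 163 CPM in SCL KO, at 249, 218 and 247 CPM in LYL1 KO and at 173, 215 and 219 CPM in WT. The LYL1 SCL DKO libraries lay above all others, although by little over the highest LYL1 KO library, and WT overlapped both single knockouts, which did not overlap each other. Itpr1 rose by 0.41 ± 0.12 on the log2 scale in LYL1 SCL DKO against WT (adjusted p = 0.0203), or 1.33-fold in the means, and by 0.55 ± 0.12 against SCL KO (adjusted p = 0.00811).

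The call of Itpr1 against WT was lost without LYL1 SCL DKO library 2 (adjusted p = 0.0566), without WT library 1 (adjusted p = 0.0819) and with only the 6 libraries compared (adjusted p = 0.0576), while that against SCL KO held under all 20 alternatives. Against LYL1 KO the log2 change was 0.18 ± 0.12 (adjusted p = 0.283). In the single knockouts it was -0.14 ± 0.12 in SCL KO against WT (adjusted p = 0.623) and 0.23 ± 0.12 in LYL1 KO against WT (adjusted p = 0.668).

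Itpr2 (ENSMUSG00000030287, chromosome 6, 146108299 to 146502223), the IP3 receptor with the highest affinity for IP3, was uneven within the double knockout. It lay at 198, 119 and 112 CPM in LYL1 SCL DKO, at 173, 174 and 143 CPM in SCL KO, at 189, 187 and 149 CPM in LYL1 KO and at 156, 171 and 140 CPM in WT. LYL1 SCL DKO library 1 held the highest level of all libraries and libraries 2 and 3 the lowest. The log2 change in LYL1 SCL DKO against WT was -0.12 ± 0.19 (adjusted p = 0.665). Without LYL1 SCL DKO library 1 the gene was called lower against WT (log2 change -0.42, adjusted p = 0.0355), against SCL KO (-0.50, adjusted p = 0.0253) and against LYL1 KO (-0.60, adjusted p = 0.00638), and the interaction was called too (-0.67, adjusted p = 0.035).

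Itpr3 (ENSMUSG00000042644, chromosome 17, 27057304 to 27122223), the least sensitive IP3 receptor, lay at 2.11, 2.59 and 3.40 CPM in LYL1 SCL DKO, at 3.33, 3.82 and 4.02 CPM in SCL KO, at 3.73, 4.18 and 3.74 CPM in LYL1 KO and at 6.29, 4.49 and 3.76 CPM in WT. The LYL1 SCL DKO libraries were below all LYL1 KO and WT libraries and overlapped SCL KO. Itpr3 fell by 0.84 ± 0.24 on the log2 scale in LYL1 SCL DKO against WT (adjusted p = 0.019). Leaving out WT library 1, the highest, ended that call (adjusted p = 0.096), as did leaving out LYL1 SCL DKO library 1 (0.0695) or 2 (0.0613) and fitting only the 6 libraries compared (0.0933).

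Summed per kilobase, the 3 IP3 receptors lay at 24.6 ± 3.53 CPM in LYL1 SCL DKO, 21.5 ± 2.23 in SCL KO, 25.3 ± 1.46 in LYL1 KO and 22.1 ± 1.56 CPM in WT. Itpr1 made up 60.2 ± 6.82% of that sum in LYL1 SCL DKO and 49.9 ± 4.60% in WT, and Itpr2 made up 38.6 ± 7.17% in LYL1 SCL DKO and 47.6 ± 3.93% in WT. The ratio of Itpr1 to Itpr2 was 1.12, 1.91 and 1.81 in the LYL1 SCL DKO libraries and at most 1.34 in any other library, so that libraries 2 and 3 stood apart and library 1 did not. Itpr3 made up 1.26 ± 0.465% of the sum in LYL1 SCL DKO and 2.47 ± 0.801% in WT.

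The ryanodine receptors rested on few reads. Ryr2 (ENSMUSG00000021313, chromosome 13, 11553103 to 12106945) encodes the release channel of heart muscle. It had 55, 54 and 15 counts in the LYL1 SCL DKO libraries, 3, 4 and 1 in SCL KO, 2, 8 and 2 in LYL1 KO and 6, 5 and 9 in WT. These are 1.84, 1.79 and 0.468 CPM in LYL1 SCL DKO, 0.035 to 0.143 CPM in SCL KO, 0.081 to 0.301 CPM in LYL1 KO and 0.218 to 0.328 CPM in WT. Every LYL1 SCL DKO library was above every other library, with library 3 much nearer to WT than libraries 1 and 2, and most single knockout libraries stood near 3 counts, a level at which a gene can go undetected in a library.

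Ryr2 rose by 2.34 ± 0.65 on the log2 scale in LYL1 SCL DKO against WT (adjusted p = 0.0153), by 3.75 ± 0.72 against SCL KO (adjusted p = 0.0036) and by 3.07 ± 0.68 against LYL1 KO (adjusted p = 0.00432). The call against WT was lost without LYL1 SCL DKO library 1 (adjusted p = 0.0501) or 2 (0.0533) and without WT library 1 (0.0532) or 2 (0.0565), while the other 2 comparisons kept theirs under all 19 alternatives that tested the gene. Without LYL1 KO library 2 the log2 change against LYL1 KO was 3.95 and the interaction 5.36. A filter of 1 CPM in 3 libraries removed it. With all libraries, the interaction was 4.48 ± 1.03 on the log2 scale (adjusted p = 0.0203), and its call was lost without SCL KO library 1 (adjusted p = 0.0517), without LYL1 KO library 1 (0.058) and with limma-voom (0.0669). In LYL1 KO against WT the log2 change was -0.74 ± 0.73 (adjusted p = 0.847), and in SCL KO against WT it was -1.41 ± 0.77 (adjusted p = 0.38).

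Heart muscle markers were low and mixed in direction. Their 12 genes summed to 6.20, 3.98 and 4.68 CPM in LYL1 SCL DKO, 0.967 to 2.21 CPM in SCL KO, 1.45 to 1.62 CPM in LYL1 KO and 1.62, 1.39 and 5.72 CPM in WT. The troponin gene Tnni3 was called higher in LYL1 SCL DKO against WT (log2 change 1.54 ± 0.38, adjusted p = 0.00892), at 3.26 ± 1.27 CPM in LYL1 SCL DKO and 1.12 ± 0.194 CPM in WT. The troponin genes Tnnt2 and Tnni1, too scarce to be tested, averaged 0.122 and 0.095 CPM in LYL1 SCL DKO, against 0.533 and 0.504 CPM in WT. Ttn, also on this list, averaged 1.40 ± 1.02 CPM in LYL1 SCL DKO, 0.0842 in SCL KO, 0.157 in LYL1 KO and 0.693 ± 1.2 CPM in WT. It was not called in LYL1 SCL DKO against WT (log2 change 0.99 ± 1.25, adjusted p = 0.578). Myh6, Nkx2-5, Myl7 and Nppa were at 0 in all groups, and Hand1 was at 0 in LYL1 SCL DKO. WT library 3, high for these markers, had 9 counts of Ryr2. The part of such cells in the level of Ryr2 was not tested.

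Ryr3 (ENSMUSG00000057378, chromosome 2, 112631355 to 113217096), a ryanodine receptor of brain and several other tissues, had 226, 121 and 113 counts in LYL1 SCL DKO, 104, 102 and 46 in SCL KO, 20, 26 and 33 in LYL1 KO and 19, 41 and 20 in WT. In CPM it lay at 7.57, 4.02 and 3.53 in LYL1 SCL DKO, at 4.02, 3.64 and 1.61 in SCL KO, at 0.810, 0.979 and 1.40 in LYL1 KO and at 0.791, 1.79 and 0.729 in WT. The double knockout libraries lay above all LYL1 KO and WT libraries and overlapped SCL KO, of which libraries 1 and 2 were also above WT and library 3 was within it. Exons of Ryr3 overlap those of Aven on the other strand by 916 bases, and the counting was set to use the strand.

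Ryr3 rose by 2.20 ± 0.47 on the log2 scale in LYL1 SCL DKO against WT (adjusted p = 0.00354), or 4.57-fold in the means, and by 2.24 ± 0.47 against LYL1 KO (adjusted p = 0.00299), calls that held under all 20 alternatives. In SCL KO against WT its log2 change was 1.49 ± 0.47 and was not called by edgeR (adjusted p = 0.103), while DESeq2 called it (adjusted p = 0.0299). The log2 change between LYL1 SCL DKO and SCL KO was 0.71 ± 0.44 (adjusted p = 0.293), and the interaction was 0.75 ± 0.65 (adjusted p = 0.532). Neural markers summed to 25.3 to 86.9 CPM in LYL1 SCL DKO, 18.5 to 27.7 CPM in SCL KO, 3.77 to 11.5 CPM in LYL1 KO and 6.23 to 9.33 CPM in WT, and Sox1 had no count in any library. The 2 neural markers that could be tested went opposite ways. Nes averaged 45.5 ± 35.5 CPM in LYL1 SCL DKO, 18.1 ± 6.72 in SCL KO, 2.05 ± 1.98 in LYL1 KO and 4.36 ± 0.645 CPM in WT, and it rose by 3.38 ± 0.63 on the log2 scale in LYL1 SCL DKO against WT (adjusted p = 0.00148). Tubb3 averaged 0.428 ± 0.211 CPM in LYL1 SCL DKO, 4.78 ± 1.99 in SCL KO, 5.21 ± 1.97 in LYL1 KO and 3.42 ± 1.1 CPM in WT, and it fell by 2.99 ± 0.48 on the log2 scale in LYL1 SCL DKO against WT (adjusted p = 0.000553). Skeletal muscle markers summed to 14.6 to 29.5 CPM in LYL1 SCL DKO, 9.17 to 10.1 CPM in SCL KO, 5.57 to 9.32 CPM in LYL1 KO and 5.75 to 22.6 CPM in WT, with Myf5 at 0 in all. Mylpf made up most of the mean sum and was called higher in LYL1 SCL DKO against WT (log2 change 1.56 ± 0.24, adjusted p = 0.000352). Myod1, Myog and Acta1 averaged 0.427, 0.359 and 0.276 CPM in LYL1 SCL DKO, against 0.564, 1.42 and 1.89 CPM in WT. Ttn averaged 1.40 against 0.693 CPM, and none of these was called. The part of such cells in the level of Ryr3 was not tested.

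Over the 10 genes, the interaction was called for Ryr2, which was positive, and Orai1, which was negative, where 9.38% of all genes were called, 3.51% positive and 5.86% negative. Leaving out 1 library changed that count of 2 members to between 0 and 4. Stim1 and Atp2a3 had log2 values of -0.71 ± 0.31 and -0.88 ± 0.33 that were not called (adjusted p = 0.185 and 0.122). The median interaction of the 10 genes was -0.20, beside 0.04 over all genes tested. In LYL1 KO against WT the 10 log2 changes had a median of 0.05, beside -0.00 over all genes tested.

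The other genes of calcium signalling were taken from 7 lists by role, with 96 genes of which 79 could be tested. In LYL1 SCL DKO against WT, 14 were called higher (17.7%) and 26 lower (32.9%), where 16.4% of all genes tested were called higher and 18.1% lower. Their median log2 change was -0.17, beside 0.04 over all genes tested. In SCL KO against WT, 4 were called higher and 3 lower (8.86% in all), where 5.03% of all genes were called, with a median of 0.02. DESeq2 called 14 of the 79 there, beside 1329 of all 15399 genes. Without SCL KO library 2 or 3 or WT library 2, edgeR called 4 there. In LYL1 KO against WT edgeR called 0 and DESeq2 and limma-voom called 0, where edgeR called 0.0714% of all genes. An unadjusted edgeR p under 0.05 was met by 3 of the 79, beside 1230 of all 15399 genes tested. Between LYL1 SCL DKO and SCL KO, 5 were called higher and 16 lower (26.6% in all), where 19.1% of all genes were called. Between LYL1 SCL DKO and LYL1 KO, 16 were called higher and 27 lower (54.4% in all), where 35.2% of all genes were called.

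**Figure D4:**
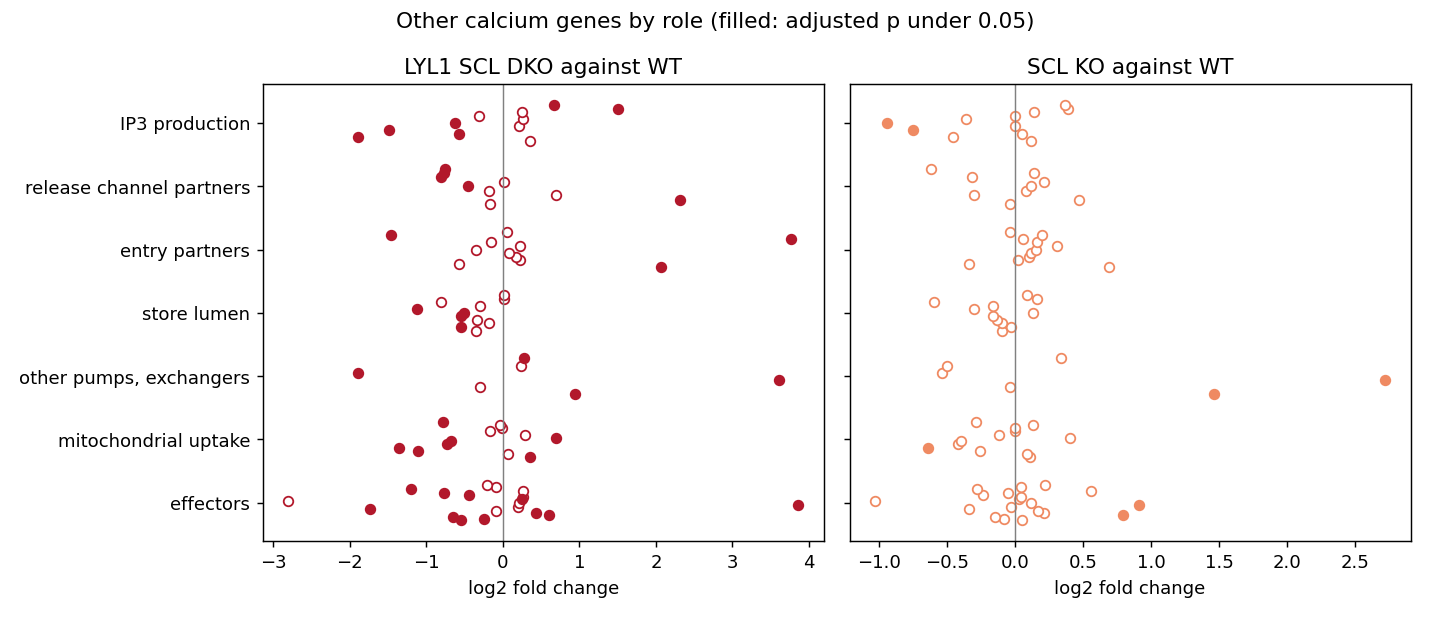
Log2 fold change of each tested gene of the 7 calcium lists, 1 row per role, in LYL1 SCL DKO against WT at the left and SCL KO against WT at the right; filled points have an adjusted p under 0.05, and the vertical scatter within a row only separates points. Filled points number 40 of 79 at the left and 7 of 79 at the right, and the store lumen genes that are filled all lie below 0.

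Upstream of the release channels, the genes that make and remove IP3 moved in both directions. Of 11 tested, 2 rose and 4 fell in LYL1 SCL DKO against WT (54.5% called), with a median log2 change of 0.21. For this list and each that follows, the values over all genes tested are 34.5% called and a median of 0.04. Plcg1, a phospholipase C driven by tyrosine kinases, averaged 69.2 ± 0.901 CPM in LYL1 SCL DKO and 24.4 ± 2.71 CPM in WT (log2 change 1.5 ± 0.11, adjusted p = 2.92e-06), and its relative Plcg2 rose by 0.67 ± 0.11 (adjusted p = 0.000683). Gnaq, the G protein subunit that drives phospholipase C beta, fell to 105 ± 38.6 CPM in LYL1 SCL DKO, against 390 ± 53 CPM in WT (log2 change -1.89 ± 0.26, adjusted p = 0.00016). Itpkb and Inpp5a, whose enzymes remove IP3, fell by 1.48 ± 0.17 and 0.57 ± 0.12 on the log2 scale, and Plcb1, a phospholipase C beta, by 0.63 ± 0.18. In SCL KO against WT, Plcb1 fell by 0.94 ± 0.19 on the log2 scale (adjusted p = 0.0122) and Itpkb by 0.75 ± 0.17 (adjusted p = 0.0228). These last calls were lost when SCL KO library 1 was left out for Plcb1 (adjusted p = 0.0628) and when SCL KO library 2 or 3 or WT library 1 or 2 was left out for Itpkb (adjusted p up to 0.0887).

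Of 9 tested partners of the release channels, 1 rose and 4 fell in LYL1 SCL DKO against WT (55.6% called), with a median log2 change of -0.18. Asph, whose locus encodes the store membrane proteins junctin and junctate beside a hydroxylase, lay at 214 ± 128 CPM in LYL1 SCL DKO and 42.8 ± 6.85 CPM in WT (log2 change 2.32 ± 0.34, adjusted p = 0.000305). Without LYL1 SCL DKO library 3 the log2 change of Asph was 1.71 (adjusted p = 0.000146). Lrmp and Mrvi1, both of which encode IP3 receptor-associated proteins, fell by 0.81 ± 0.18 and 0.77 ± 0.22 on the log2 scale, the second of them named after its values were seen. The channel-binding immunophilin Fkbp1a fell by 0.45 ± 0.11 on the log2 scale, and the skeletal muscle ryanodine receptor Ryr1 fell by 0.75 ± 0.21, to 10.03 ± 1.26 CPM in LYL1 SCL DKO against 16.9 ± 2.77 CPM in WT (adjusted p = 0.0144). The call of Fkbp1a was lost with only the 6 libraries compared (adjusted p = 0.0549). Ryr1 thus fell where Ryr2 and Ryr3 rose.

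Of 11 tested partners of store-operated entry, 2 rose and 1 fell in LYL1 SCL DKO against WT, with a median log2 change of 0.08. Their share of calls, 27.3%, was near the 34.5% of all genes tested. Cracr2a, a calcium-binding regulator of the ORAI1 and STIM1 complex, lay at 13.9 ± 2.65 CPM in LYL1 SCL DKO and 3.30 ± 0.818 CPM in WT (log2 change 2.07 ± 0.22, adjusted p = 2.82e-05). Tmem178, a protein of the endoplasmic reticulum, rose by 3.76 ± 0.76 on the log2 scale (adjusted p = 0.00262) but was uneven, at 6.92 ± 6.59 CPM in LYL1 SCL DKO and 0.509 ± 0.192 CPM in WT. Without LYL1 SCL DKO library 3 the log2 change of Tmem178 was 2.63 (adjusted p = 0.0104). The cation channel gene Trpc1 fell by 1.46 ± 0.40 on the log2 scale (adjusted p = 0.0144), a call lost without the filter on low counts (adjusted p = 0.0672). Orai2 and Orai3, the other ORAI channels, lay at 59.1 ± 15 and 37.1 ± 5.12 CPM in LYL1 SCL DKO, against 52.4 ± 1.81 and 35.2 ± 1.85 CPM in WT, and were not called.

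Inside the store, 4 of 11 tested luminal calcium-binding and chaperone genes fell in LYL1 SCL DKO against WT and the other 7 were not called, with a median log2 change of -0.35. The share called, 36.4%, was near that of all genes tested, where 18.1% were called lower. Nucb2 and Nucb1, calcium-binding proteins of the secretory pathway, fell by 1.12 ± 0.17 on the log2 scale (adjusted p = 0.000329) and 0.50 ± 0.11 (adjusted p = 0.00543). Calu, a calcium-binding protein of the store, fell by 0.54 ± 0.10 on the log2 scale (adjusted p = 0.00112). The chaperone gene Hspa5 fell by 0.55 ± 0.14 on the log2 scale and was named after its values were seen.

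Other pumps, exchangers and leak channels changed as well. Of 6 tested, 3 rose and 1 fell in LYL1 SCL DKO against WT (66.7% called), with a median log2 change of 0.26. The plasma membrane pump Atp2b4, which expels calcium from the cell, lay at 102 ± 35.1 CPM in LYL1 SCL DKO and 54.9 ± 9.89 CPM in SCL KO, against 9.27 ± 3.36 CPM in LYL1 KO and 8.29 ± 2.82 CPM in WT. It rose by 3.61 ± 0.34 on the log2 scale in LYL1 SCL DKO (adjusted p = 1.35e-05) and by 2.72 ± 0.33 in SCL KO (adjusted p = 0.00064), both against WT. The Golgi pump Atp2c1 fell by 1.89 ± 0.22 on the log2 scale in LYL1 SCL DKO, to 240 ± 46.3 CPM against 893 ± 165 CPM in WT (adjusted p = 5.61e-05). Atp2a1, the fast muscle relative of Atp2a3, rose by 0.95 ± 0.31 on the log2 scale in LYL1 SCL DKO and by 1.46 ± 0.31 in SCL KO against WT (adjusted p = 0.0333 and 0.0182), and 5 and 4 of 20 alternatives lost these calls. In LYL1 SCL DKO the call was lost without library 1 (adjusted p = 0.115) or 3 (0.0583), without WT library 1 (0.0755) or 2 (0.0996) and with only the 6 libraries compared (0.113), and in SCL KO without its library 2 or 3 or WT library 1 or 2 (adjusted p up to 0.063). Tmco1, a store leak channel, rose by 0.28 ± 0.09 on the log2 scale (adjusted p = 0.0401) in LYL1 SCL DKO, and 13 of 20 alternatives lost that call, among them every left-out library other than LYL1 SCL DKO library 2 and SCL KO library 3, with adjusted p up to 0.166.

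Of 12 mitochondrial calcium genes, 2 rose and 5 fell in LYL1 SCL DKO against WT (58.3% called), with a median log2 change of -0.10. Mcur1, a regulator of the mitochondrial uniporter, fell by 1.36 ± 0.12 on the log2 scale in LYL1 SCL DKO (adjusted p = 1.09e-05) and by 0.64 ± 0.12 in SCL KO (adjusted p = 0.0106). Micu2, a calcium gate of the uniporter, fell by 0.68 ± 0.11 on the log2 scale in LYL1 SCL DKO, and its relative Micu3 rose by 0.70 ± 0.19, a call lost without WT library 1 (adjusted p = 0.0638) and with only the 6 libraries compared (0.0603). Letm1, of the inner membrane, rose by 0.36 ± 0.11 on the log2 scale, and 6 of 20 alternatives lost that call, which included leaving out LYL1 SCL DKO library 1 or 3 or WT library 1 or 2 (adjusted p up to 0.116). Mcub and Vdac3, named after their values were seen, fell by 1.11 ± 0.34 and 0.78 ± 0.17 on the log2 scale.

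Among 19 tested effectors of calcium, 4 rose and 7 fell in LYL1 SCL DKO against WT (57.9% called), with a median log2 change of -0.09. Nfatc2, a transcription factor that enters the nucleus after store-operated entry, lay at 60.9 ± 9.04 CPM in LYL1 SCL DKO and 7.85 ± 2.58 CPM in SCL KO, against 3.87 ± 0.369 CPM in LYL1 KO and 4.20 ± 0.576 CPM in WT. It rose by 3.86 ± 0.23 on the log2 scale in LYL1 SCL DKO (adjusted p = 5.67e-07). In SCL KO it rose by 0.91 ± 0.22 on the log2 scale (adjusted p = 0.0328), and 10 of 20 alternatives lost that call, which included leaving out SCL KO library 2 or 3 or any LYL1 KO or WT library (adjusted p up to 0.125). The calmodulin kinase genes Camk2d and Camk2g rose by 0.60 ± 0.12 and 0.43 ± 0.09 on the log2 scale in LYL1 SCL DKO, and Camk2d also rose by 0.79 ± 0.12 in SCL KO. The calpain protease gene Capn2 fell by 1.74 ± 0.14 on the log2 scale (adjusted p = 4.12e-06), and the calmodulin gene Calm3 fell by 0.65 ± 0.15 in LYL1 SCL DKO. The phosphatase gene Ppp3ca, named after its values were seen, rose by 0.25 ± 0.08 on the log2 scale.

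Genes with a like pattern were sought for the members whose highest group mean was at least 2 times the lowest. These were Ryr2 at 14-fold, Ryr3 at 4.73-fold and Atp2a3 at 2.15-fold, while Orai1 at 1.99-fold and Stim2 at 1.94-fold lay just outside. Likeness was the root mean square difference between centred log2 group means over the 4 genotypes, with 0.5 CPM added, among 8034 genes, and carries no test. Atp2a3 was most like Ehd4 (0.0184), Fblim1 (0.0245) and Hibch (0.0247). Ryr3 was most like Adgrg3 (0.0286), Smad3 (0.0497) and Gbp4 (0.0499). Ryr2 was most like Vegfa (0.0871), Rassf5 (0.0903) and Trib1 (0.0939), at several times the distance seen for Atp2a3. Ryr2 averaged 1.37 CPM in LYL1 SCL DKO and 0.0979 to 0.265 CPM in the other groups. The added 0.5 CPM thus shrank its span well below 14-fold, and these genes match only that shrunken profile. Vegfa averaged 87.5 CPM in LYL1 SCL DKO, against 30.5 CPM in SCL KO, 33.6 CPM in LYL1 KO and 34.1 CPM in WT.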

How the data were processed

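RNA sequencing counts of 12 libraries of pooled mouse embryos were used, 3 per genotype, and the labels gave each library's group and replicate number. The sample titles call the replicates biological (Bio Rep), but no label states that they came from separate litters. The p-values therefore speak only of the spread among these samples. The values are unnormalised read counts by gene in 1 table that the authors deposited. Per the labels' protocols, libraries were made with a stranded mRNA kit. Per the submitters' processing notes, the tools were STAR 2.5.2b, featureCounts from Subread 1.5.2 and limma, on build GRCm38. Per the file headers, counting used the reverse strand and Ensembl release 87 and left out reads that map to several places. A symbol was matched for 49326 genes and not for 345.

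From these counts, genes were kept with edgeR's filter by group (minimum count 10, total 15), which left 15399 of 26757 genes with any count. They were scaled by TMM and tested with the robust quasi-likelihood F-test of edgeR 4.0.16 under R 4.3.3, in a single model of the 12 libraries by genotype, with Benjamini-Hochberg adjustment over all genes tested in a comparison. Where no other tool is named, an adjusted p comes from that model. The common biological coefficient of variation was 0.234. The code was tested on simulated data. Gene lengths for levels per kilobase are those in the deposited table. Reads carried no molecular identifiers, so limits from a count of 0 describe counting error alone.

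The alternatives were DESeq2 size factors, upper-quartile factors, other low-count filters, the Wald test of DESeq2 1.42.0, limma-voom with limma 3.58.1, the replicate number as a block, only the libraries compared, and each library left out. Same-numbered libraries of LYL1 SCL DKO and SCL KO deviated together from their group means (correlations of 0.216, 0.15 and 0.441), so the blocked value is given beside their comparison where it changed a call. The members and the gene lists were chosen with earlier results of these data known. The genes named from a list were the called genes with the smallest adjusted p in LYL1 SCL DKO or SCL KO against WT, up to 3 that rose and 3 that fell per list, others being marked where named. Some genes that this rule chose are not reported here by name, and the list counts include them.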

Additional observations from a re-analysis of the deposited data

Results flagged for a closer look

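The interaction, which compares the difference between LYL1 SCL DKO and SCL KO with that between LYL1 KO and WT, was called by edgeR for Ryr2 and for Orai1. For Ryr2 it was 4.48 ± 1.03 on the log2 scale (adjusted p = 0.0203). Ryr2 passed the filter on low counts only through the LYL1 SCL DKO libraries, where it is high, so that the gene was tested because of the difference itself. Without that filter the interaction was 4.47 (adjusted p = 0.015), and without LYL1 KO library 2 it was 5.36. Ryr2 had 55, 54 and 15 counts in LYL1 SCL DKO and 3, 4 and 1 in SCL KO, and 2, 8 and 2 counts in LYL1 KO and 6, 5 and 9 in WT. It was higher in every double knockout library than in every SCL KO library, while the LYL1 KO libraries overlapped WT. The call was lost without SCL KO library 1 (adjusted p = 0.0517), without LYL1 KO library 1 (0.058) and with limma-voom (0.0669).

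For Orai1 the interaction was -0.81 ± 0.21 on the log2 scale (adjusted p = 0.0364). Orai1 averaged 27.3 ± 1.06 CPM in LYL1 SCL DKO and 45.8 ± 10.5 CPM in SCL KO, and 54.4 ± 3.93 CPM in LYL1 KO and 52.2 ± 6.16 CPM in WT (SD, n = 3 each). It was lower in every double knockout library than in every SCL KO library, while LYL1 KO and WT overlapped. The call was lost in 10 of the 12 fits that left out a library, and DESeq2, limma-voom, the block and every other scaling and filter tried kept it.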

How the results depend on the processing

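Of 1182 alternative values of the member changes, 1105 kept their direction and their side of the threshold, 44 lost a call, 15 gained one and 18 changed sign without being called. The cause was not tested, except that fits with fewer libraries have less information. The calls of Stim2, Orai1, Atp2a3 and Ryr3 in LYL1 SCL DKO against WT held under all 20 alternatives. Scaling moved the median of all genes by less than 0.1 on the log2 scale.

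Sign changes were met for values near 0. In LYL1 KO against WT, Ryr3 was at 0.03 with the replicate block and 0.05 with limma-voom. With 1 library left out, its log2 change ranged from -0.29 to 0.50, that of Stim2 from -0.15 to 0.02, Orai1 from -0.04 to 0.13, Atp2a2 from -0.00 to 0.16 and Atp2a3 from -0.04 to 0.10. In SCL KO against WT the ranges were -0.00 to 0.15 for Itpr2, -0.06 to 0.20 for Stim1 and -0.16 to 0.01 for Atp2a2. Itpr2 ranged from -0.42 to 0.02 in LYL1 SCL DKO against WT, Atp2a2 from -0.14 to 0.04 in LYL1 SCL DKO against SCL KO, and the interaction of Itpr3 from -0.38 to 0.01.

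Leaving out 1 library gave 3899 to 5528 genes and 4 to 7 members called in LYL1 SCL DKO against WT, 388 to 1063 genes and 1 member in SCL KO against WT, 5 to 41 genes and 0 members in LYL1 KO against WT, 1645 to 3222 genes and 3 to 6 members in LYL1 SCL DKO against SCL KO, 3884 to 5630 genes and 5 to 7 members in LYL1 SCL DKO against LYL1 KO, and 671 to 1925 genes and 0 to 4 members for the interaction. Calls among the pathway lists then ranged from 4 to 9 in SCL KO against WT and from 5 to 21 for the interaction. With all libraries the interaction was called for 15 of the 79 tested list genes, 5 positive and 10 negative. That was 19.0%, where 9.38% of all genes tested were called. The 4 members in LYL1 SCL DKO against WT were seen without LYL1 SCL DKO library 2 and without WT library 1.

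DESeq2 called 1329 genes, 2 members and 14 pathway genes in SCL KO against WT, where edgeR called 774, 1 and 7, and it called 103 genes in LYL1 KO against WT, where edgeR called 11, and 2261 for the interaction, where edgeR called 1444. With only the libraries compared, 29 genes were called in LYL1 KO against WT, and 1742 genes (edgeR with all libraries, 2947) and 3 members in LYL1 SCL DKO against SCL KO. The interaction called 1 member under the 1 CPM filter, which removed Ryr2, and 1 with limma-voom.

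Only LYL1 SCL DKO and SCL KO had all 3 correlations of same-numbered libraries over 0.1 (lowest in any other pair of groups, -0.0432). Within that pair, LYL1 SCL DKO library 1 correlated best with SCL KO library 2 and library 2 with library 1. Number 3 alone was its own best match there. SCL KO and WT fell just short, at 0.09999, 0.144 and 0.361. Number 3 was its own best match in every pair of groups but LYL1 SCL DKO and LYL1 KO, so pairing was not clearly particular to 1 pair. With the replicate block, 1226 genes and 12 pathway genes were called in SCL KO against WT and 4 members for the interaction, where Stim1 (adjusted p = 0.0318) and Atp2a3 (0.0194) joined, and Stim1 was called in LYL1 SCL DKO against WT (0.0228). Among genes named from the lists, 27 of 37 changes held under every alternative.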
